A study of Mus musculus with 12 samples.

Results

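Oligodendrocytes wrap axons in myelin, and their genes are switched on in a fixed order as precursors differentiate, so a list of lineage genes can be read stage by stage. The 34 genes described here were listed by symbol from common knowledge of that lineage, as 4 precursor genes, 4 lineage transcription factors, 5 genes of newly formed oligodendrocytes and 21 genes of mature, myelinating cells. All 34 were found in the count files, which list 55487 genes, and all 34 passed the filter on low counts that left 21309 genes for testing.

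Striatal RNA came from 12 mice in 4 groups of 3. WT were C57BL/6J controls. HD mice were heterozygous for the neo-deleted zQ175 allele, an expanded CAG repeat knocked into mouse Htt as a model of Huntington's disease. cGAS-KO mice lacked cGAS, the sensor of cytosolic DNA upstream of STING, and cGAS-KO;HD mice, called double mutants below, carried both the knockout and the knock-in. The knock-in allele is carried by every cell type, so no comparison is confined to oligodendrocytes. The sources used here do not give age, sex, litter, batch or the part of Cgas that was removed.

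Precursors divide under the control of platelet-derived growth factor and its receptor Pdgfra. The transcription factors Olig1, Olig2, Sox10 and Sox8 hold the lineage identity, and Sox10 together with Myrf turns on the genes of compact myelin. Newly formed cells pass through a short state marked by Gpr17, Bcas1 and Enpp6 before they make large amounts of Mbp, Mobp, Cnp, Mag and Mog. In the striatum oligodendrocytes ensheath the axon bundles of the internal capsule that cross it.

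Libraries held 59195327 to 72765623 counts, and levels below are in CPM, counts scaled to the TMM-adjusted library total. The 34 genes together took 0.758% to 1.29% of the counts. Both ends of that range stood apart from their groups: WT replicate 1 was the highest, and cGAS-KO replicate 3, in which mitochondrially encoded genes took 11.51% of counts against 5.302% to 9.026% elsewhere, was the lowest. By chi-square per gene, WT replicate 1 lay 50.8 and 81.5 from the rest of its group and cGAS-KO replicate 3 lay 158 and 196. Replicates 1 and 3 of HD (49.7) and of the double mutants (55.9) were about as far apart as the lower WT value. Xist was high in both of these, in HD replicates 1 and 2 and in double-mutant replicates 2 and 3, which is 2 of the 6 libraries without the knock-in and 4 of the 6 with it. Htt was lower with the knock-in, with a log2 change of -0.32 ± 0.08 in HD against WT (SE; adjusted p = 0.0389). Cgas was at 1.32 to 1.56 CPM in WT, 0.572 to 0.882 in cGAS-KO, 1.07 to 1.26 in HD and 0.798 to 1.15 in the double mutants. The cGAS-KO and WT libraries did not overlap (-0.86 ± 0.24 on the log2 scale; adjusted p = 0.919), while the double mutants overlapped HD. Since the removed part of the gene is not given, reads from outside it would check nothing, and the cGAS groups below rest on their labels.

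The defining genes of the lineage were well measured. Mbp, the basic protein that holds myelin layers together, was the highest of the 34 per length, at 542 CPM per kilobase of exon in WT. Mobp followed at 269 and Trf at 175 CPM per kilobase. Pdgfra was at 6.86. Enpp6, a choline-specific phosphodiesterase found in cells that have just begun to differentiate, had the largest change of the 34 with the knock-in. A match to SOX10 was looked for upstream of the members because Sox10 itself changed. RefSeq start sites (GRCm38.p6) were at hand for 25 of the 34 genes, 36 start sites in all. The 250 bases before the start are shown for 2 genes that rose with the knock-in (Enpp6, Sox8) and 3 that fell (Cldn11, Mobp, Mal). Capitals mark the letters ACAAAG or ACAATG, which occur in sites bound by SOX proteins, on either strand, so that CTTTGT is the opposite-strand form of ACAAAG.

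Enpp6 (chr8:46986637-46986886, plus strand): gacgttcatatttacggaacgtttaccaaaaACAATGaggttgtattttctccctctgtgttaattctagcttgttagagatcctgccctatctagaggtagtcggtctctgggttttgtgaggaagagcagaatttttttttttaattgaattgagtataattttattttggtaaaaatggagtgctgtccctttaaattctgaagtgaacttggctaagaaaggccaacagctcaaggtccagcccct
Sox8 (chr17:25570687-25570936, minus strand): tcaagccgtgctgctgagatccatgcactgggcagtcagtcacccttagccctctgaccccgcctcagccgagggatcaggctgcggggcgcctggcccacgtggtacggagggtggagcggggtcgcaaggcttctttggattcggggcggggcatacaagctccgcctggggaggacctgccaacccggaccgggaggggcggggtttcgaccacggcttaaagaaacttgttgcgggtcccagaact
Cldn11 (chr3:31149670-31149919, plus strand): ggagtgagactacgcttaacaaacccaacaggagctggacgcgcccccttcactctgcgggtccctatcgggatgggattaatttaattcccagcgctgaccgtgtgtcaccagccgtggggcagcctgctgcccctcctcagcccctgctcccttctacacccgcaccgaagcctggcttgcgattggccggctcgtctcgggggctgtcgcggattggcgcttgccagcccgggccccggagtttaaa
Mobp (chr9:120149492-120149741, plus strand): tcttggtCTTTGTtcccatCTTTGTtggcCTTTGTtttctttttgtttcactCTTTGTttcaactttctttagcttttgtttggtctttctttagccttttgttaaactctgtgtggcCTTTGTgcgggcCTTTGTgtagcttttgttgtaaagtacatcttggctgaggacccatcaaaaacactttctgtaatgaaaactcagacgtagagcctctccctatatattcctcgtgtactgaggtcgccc
Mal (chr2:127656696-127656945, minus strand): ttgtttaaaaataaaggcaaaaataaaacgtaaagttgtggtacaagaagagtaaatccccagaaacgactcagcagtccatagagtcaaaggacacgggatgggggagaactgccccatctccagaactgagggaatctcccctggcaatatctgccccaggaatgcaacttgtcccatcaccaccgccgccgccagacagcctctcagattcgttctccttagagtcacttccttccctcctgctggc

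Enpp6 held 1 ACAATG on its own strand, and Mobp held 6 copies of ACAAAG, all on the opposite strand. Sox8, Cldn11 and Mal held neither. ACAAAG was found in 10 of the 36 upstream stretches of the members and in 16.5% of all 32851 such stretches in the table. ACAATG was found in 7 of 36, against 10.7% of all. The E-box CAGCTG, a sequence bound by OLIG2, was found in 4 of 36 (13% of all), and CTGGCAC, the core bound by MYRF, in 3 of 36 (4.19% of all). Several genes have more than 1 start site, some of them overlapping (those of Mag and of Gal3st1), so the 36 stretches are not independent. In the 5 stretches shown, ACAAAG or ACAATG was present in some and absent from others, among genes that rose and among genes that fell. Other genes that changed with the knock-in also had a start site at hand. Of these, Ermn, Gjb1 and Apod (higher) and Tspan2 (lower) held ACAAAG or ACAATG before a start site. Vcan (higher), Ugt8a and Aspa (lower) held neither. A link between these letters and the direction of change was not tested.

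With the knock-in allele averaged over both cGAS genotypes (HD and double mutants against WT and cGAS-KO), 19 of the 34 genes were called at an adjusted p under 0.05, by the quasi-likelihood test of edgeR, adjusted by Benjamini-Hochberg over all genes. Of all genes tested, 13.2% were called in that comparison, 5.59% higher and 7.63% lower. The calls differed by stage among these 34 genes, and that difference was not tested. The precursor genes had 1 higher of 4, the lineage transcription factors 3 higher of 4 and the newly formed genes 4 higher of 5, with none lower. The mature genes had 3 higher, 8 lower and 10 not called. Their higher count depended on single libraries: it was 7 without cGAS-KO replicate 2, 5 without WT replicate 1 or cGAS-KO replicate 3, and 9 with those last 2 both left out, with 8 lower in each of these fits. In the last of these fits 21.2% of all genes were called, and the share in the others is not given here. The median log2 change was 0.07 over the precursor genes, 0.32 over the transcription factors, 0.36 over the newly formed genes and 0.13 over the mature genes, against 0.01 over all genes tested. Other genes of the same stages, described below, had medians closer to each other: 0.21 (precursor), 0.26 (newly formed) and 0.24 (mature). In bulk tissue, more or fewer cells of a type and more or less RNA per cell cannot be told apart. The 6 knock-in libraries were all above the 6 others for 7 of the 34 genes and all below them for 4, an order found in either direction for 7.49% of all genes tested.

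Of the precursor genes, 3 of 4 were not called. Pdgfra, the growth factor receptor that defines precursors, was at 71.8, 70.1 and 64.3 CPM in WT, 72.2, 71.3 and 73.5 in HD, 69.5, 67.6 and 61.2 in cGAS-KO, and 73.2, 72.3 and 74.1 in the double mutants. The 12 values lay within a narrow band. WT and HD overlapped, while all double mutants lay above all cGAS-KO libraries, with a change of 0.15 ± 0.07 that was not called. The averaged change of Pdgfra, 0.11 ± 0.05, was not called either (adjusted p = 0.153). Cspg4, the NG2 proteoglycan, and Ptprz1, a receptor phosphatase that astrocytes also carry, changed by -0.05 ± 0.10 and 0.04 ± 0.06, and neither was called. Vcan, a large matrix proteoglycan made by precursors, was called at 0.23 ± 0.06 (adjusted p = 0.0297). Its CPM was 39.7, 37.6 and 38 in WT, 48.5, 46.8 and 41.5 in HD, 42.5, 37.7 and 46.9 in cGAS-KO, and 46.5, 52.6 and 48.8 in the double mutants. cGAS-KO replicates 1 and 3 lay within the knock-in range for Vcan.

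All 4 lineage transcription factors had a positive averaged change. Sox10, the SoxE factor required for terminal differentiation, was at 82.8, 79.7 and 75.5 CPM in WT and at 90.1, 94.2 and 96.5 in HD. It was at 72.6, 82.5 and 73.6 CPM in cGAS-KO and at 103, 104 and 100 in the double mutants. Every knock-in library lay above every other library, and the averaged change was 0.33 ± 0.05 (SE; adjusted p = 0.000702). Sox8, its close relative, was at 56, 62.8 and 65.1 CPM in WT, 78.9, 79.5 and 77.9 in HD, 61.9, 63.3 and 59.5 in cGAS-KO, and 72.9, 75.3 and 75.1 in the double mutants. Again no library overlapped, with an averaged change of 0.32 ± 0.05 (adjusted p = 8e-04). An antisense gene (2810468N07Rik) shares 329 exonic bases with Sox8 and had 44.4% as many counts, and whether the counting used strand is not stated, so some Sox8 reads may be its own. Olig1, the basic helix-loop-helix factor of myelinating cells, was at 147, 121 and 113 CPM in WT, 160, 187 and 192 in HD, 119, 143 and 80.7 in cGAS-KO, and 160, 164 and 159 in the double mutants. It rose by 0.50 ± 0.12 (adjusted p = 0.016), again without overlap. Olig2, which specifies the lineage and is also found in some astrocytes, was at 47.1, 37 and 30.6 CPM in WT, 42.2, 42.3 and 45 in HD, 35.7, 36.4 and 27.9 in cGAS-KO, and 46.2, 43.8 and 41.5 in the double mutants. WT replicate 1 was the highest of the 12 for Olig2, and its averaged change of 0.29 ± 0.10 was not called (adjusted p = 0.0723).

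Enpp6 showed the largest change of the 34 genes. It was at 15.7, 17.6 and 16.4 CPM in WT and 37.6, 36.4 and 42.9 in HD. In cGAS-KO it was at 16.5, 19.8 and 17.2 CPM, and in the double mutants at 40.8, 40.4 and 36.2. The lowest knock-in library was thus well above the highest of the others, whether or not cGAS was present. The change was 1.23 ± 0.10 in HD against WT, a 2.35-fold rise (adjusted p = 2.7e-05), and 1.13 ± 0.10 in double mutants against cGAS-KO, a 2.19-fold rise (adjusted p = 4.73e-05). Enpp6 was called in both comparisons in every fit tried, including those with any single library of the groups compared left out.

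**Figure D1:**
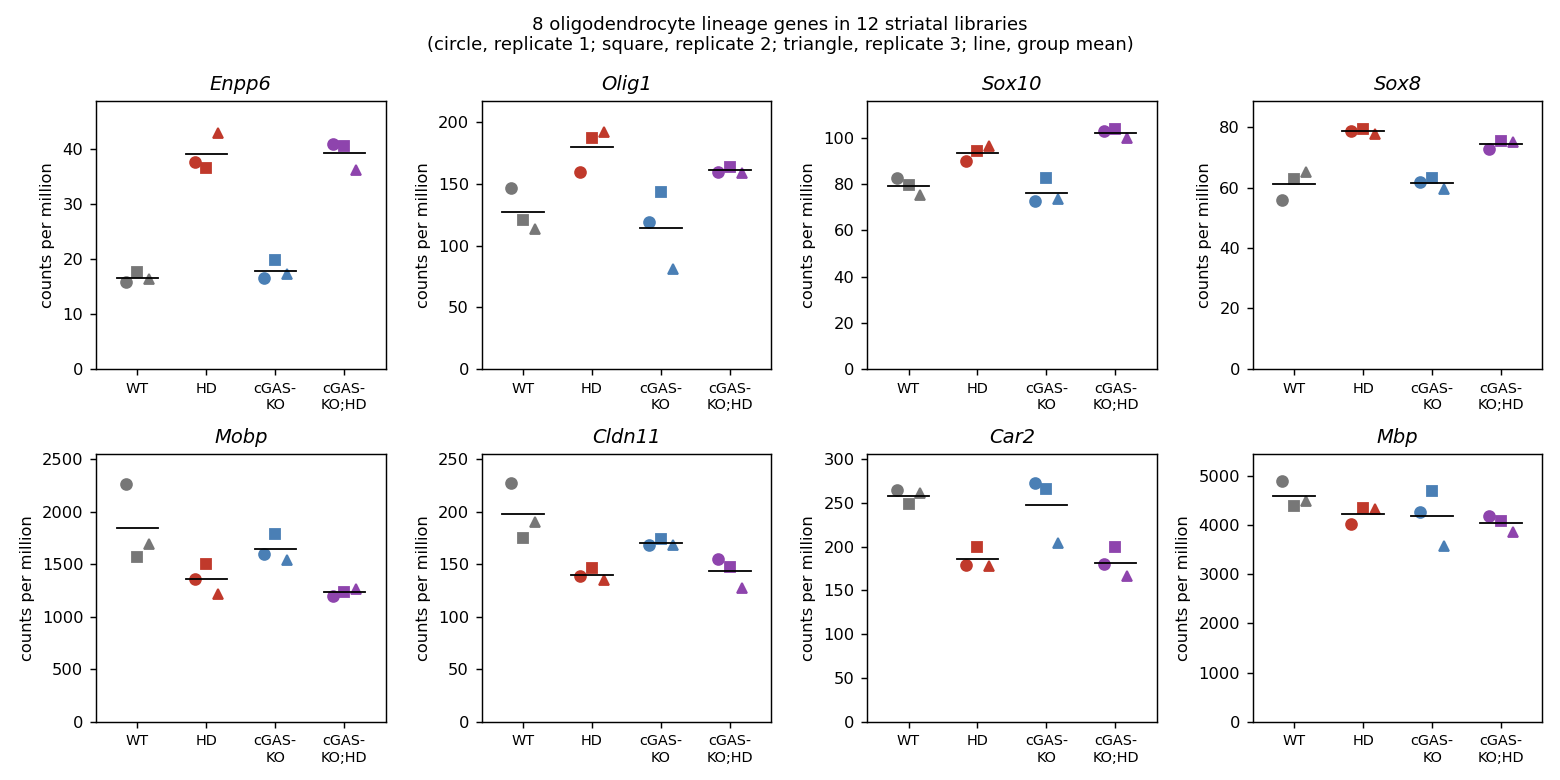
Level in CPM (vertical axis, from 0) of 8 lineage genes in each of the 12 libraries, by group, with a line at the group mean. Enpp6 separates the knock-in libraries (36.2 to 42.9 CPM) from the others (15.7 to 19.8 CPM), Olig1, Sox10 and Sox8 are higher and Mobp, Cldn11 and Car2 lower in all 6 knock-in libraries, and Mbp overlaps.

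The other newly formed genes rose less. Gpr17, a G protein-coupled receptor of cells committed to differentiate, was at 39.8, 33.5 and 37 CPM in WT, 45.6, 44.1 and 42.4 in HD, 39.8, 39.1 and 35.8 in cGAS-KO, and 45.5, 51.1 and 61.5 in the double mutants. No library overlapped, and the averaged change was 0.36 ± 0.07 (adjusted p = 0.0065). Lims2 shares 188 exonic bases with Gpr17 on the opposite strand and had 25.4% as many counts. Bcas1, a protein of early myelinating cells, was at 528, 364 and 360 CPM in WT, 485, 546 and 498 in HD, 352, 395 and 361 in cGAS-KO, and 448, 486 and 502 in the double mutants. WT replicate 1 lay within the knock-in range, and the rise was 0.33 ± 0.09 (adjusted p = 0.0314). Myrf, the membrane-bound factor that activates myelin genes, was at 127, 110 and 115 CPM in WT, 123, 127 and 132 in HD, 102, 109 and 90 in cGAS-KO, and 127, 132 and 119 in the double mutants. It rose by 0.23 ± 0.06 (adjusted p = 0.024), with overlap through WT replicate 1. Tcf7l2, a Wnt effector of differentiating oligodendrocytes that thalamic neurons also express, ranged from 8.41 to 126 CPM over the 12 libraries and was not called (0.75 ± 0.55, adjusted p = 0.432). A set of 7 thalamic and septal neuron markers, of which Tcf7l2 is itself a member, summed to between 294 and 1140 CPM over the libraries. The part of thalamic or septal tissue in the values of Tcf7l2 was not tested.

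**Figure D2:**
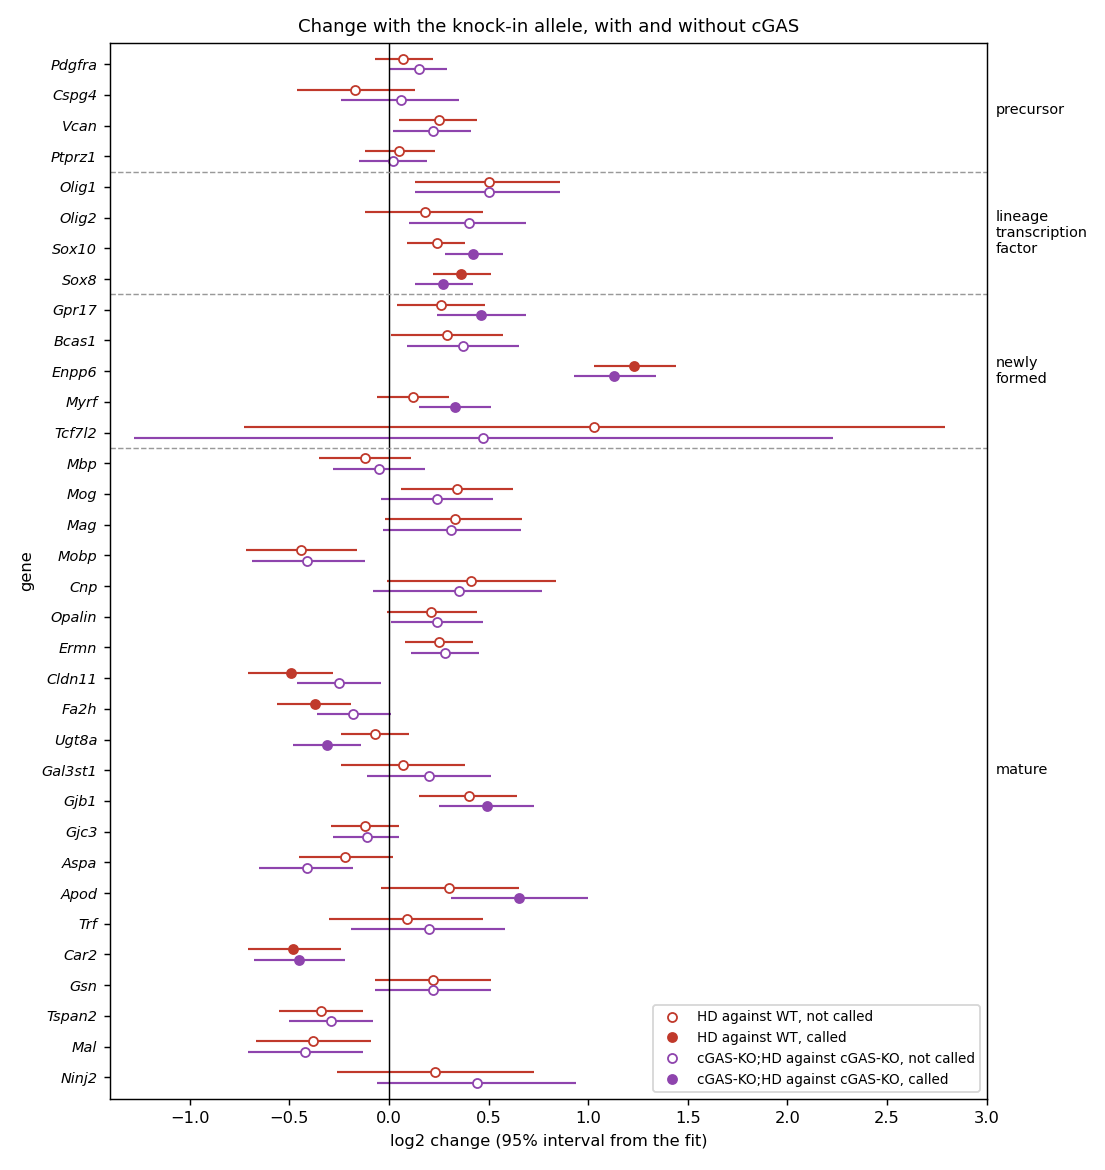
Log2 change (horizontal axis) of all 34 genes with the knock-in allele, in HD against WT (red) and in double mutants against cGAS-KO (purple), with 95% intervals from the fit and filled points for called genes, in order of maturation stage. Changes are positive for all transcription factors and newly formed genes in both comparisons, with Enpp6 farthest at 1.23 and 1.13, while mature genes lie on both sides of 0.

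The mature genes went both ways. Of the 8 that fell, Car2, the carbonic anhydrase of oligodendrocytes, was at 265, 249 and 261 CPM in WT, 179, 200 and 178 in HD, 273, 266 and 204 in cGAS-KO, and 180, 199 and 166 in the double mutants. All 6 knock-in libraries were below the 6 others, and the averaged change was -0.46 ± 0.08 (adjusted p = 0.00169). Mobp, a structural protein of compact myelin, was at 2270, 1570 and 1690 CPM in WT, 1360, 1500 and 1220 in HD, 1600, 1790 and 1540 in cGAS-KO, and 1200, 1240 and 1270 in the double mutants. It too was lower without overlap, with a change of -0.42 ± 0.09 (adjusted p = 0.00965). Cldn11, the claudin of the tight junctions between myelin layers, was at 227, 175 and 190 CPM in WT, 139, 146 and 135 in HD, 168, 174 and 168 in cGAS-KO, and 155, 147 and 127 in the double mutants. It was lower in every knock-in library, with a change of -0.37 ± 0.07 (adjusted p = 0.0037). Tspan2, a tetraspanin of myelin, was at 210, 168 and 183 CPM in WT, 145, 147 and 151 in HD, 188, 184 and 169 in cGAS-KO, and 161, 153 and 128 in the double mutants. Its change was -0.31 ± 0.07 (adjusted p = 0.00957), also without overlap.

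The other 4 genes that fell overlapped through 1 or more libraries. Mal, a proteolipid of myelin membrane traffic, was at 409, 292 and 316 CPM in WT, 256, 276 and 248 in HD, 345, 338 and 249 in cGAS-KO, and 234, 235 and 228 in the double mutants. cGAS-KO replicate 3 was the only library without the knock-in inside the knock-in range, and the change was -0.40 ± 0.10 (adjusted p = 0.0148). Aspa, the enzyme that breaks down N-acetylaspartate, was at 39.6, 42.6 and 40.7 CPM in WT, 32.8, 39 and 33.9 in HD, 44.2, 45.7 and 33.8 in cGAS-KO, and 30, 32.9 and 29.9 in the double mutants. It fell by 0.32 ± 0.08 (adjusted p = 0.0172), again with only cGAS-KO replicate 3 among the knock-in values. The remaining pair are lipid enzymes that act on the same pathway, the synthesis of galactosylceramides, the glycolipids typical of myelin. Fa2h, which hydroxylates their fatty acids, was at 69.4, 58.3 and 58.3 CPM in WT, 47.4, 50.7 and 45.3 in HD, 53.9, 58.3 and 59.7 in cGAS-KO, and 54.4, 50.3 and 47.4 in the double mutants. Ugt8a, which adds the galactose, was at 76.7, 64.9 and 62.1 CPM in WT, 62.1, 66.8 and 65.1 in HD, 84, 77.9 and 77.7 in cGAS-KO, and 64.6, 64.4 and 63.9 in the double mutants. Both fell, Fa2h with a change of -0.28 ± 0.06 (adjusted p = 0.0104) and Ugt8a with one of -0.19 ± 0.06 (adjusted p = 0.0388). For Ugt8a the WT and HD libraries overlapped, while all double mutants lay below all cGAS-KO libraries. Gal3st1, the next enzyme of that pathway, which makes sulfatide, changed by 0.13 ± 0.10 and was not called.

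The 3 mature genes that rose were Gjb1, Apod and Ermn. Gjb1, the X-linked gene of the gap junction protein connexin 32, was at 32.7, 25.8 and 27.8 CPM in WT, 35, 40.3 and 38.3 in HD, 22.9, 29.9 and 24.1 in cGAS-KO, and 35.2, 36.9 and 36.2 in the double mutants. No library overlapped, and the change was 0.44 ± 0.08 (adjusted p = 0.00287). Its averaged call held in a fit with Xist class, high or low, as a term. Ermn, a cytoskeletal protein of late myelination, was at 178, 156 and 165 CPM in WT, 194, 211 and 187 in HD, 181, 170 and 158 in cGAS-KO, and 218, 203 and 197 in the double mutants. It rose by 0.26 ± 0.06 (adjusted p = 0.00847), also without overlap. Apod, a lipid carrier that oligodendrocytes and perivascular fibroblasts share, was at 513, 355 and 321 CPM in WT, 465, 516 and 486 in HD, 304, 373 and 317 in cGAS-KO, and 586, 535 and 442 in the double mutants. WT replicate 1 overlapped, and the rise was 0.48 ± 0.11 (adjusted p = 0.0143). A set of 7 fibroblast markers summed to 19.8 to 36.6 CPM without the knock-in and 27.1 to 42 with it, with 1 called higher (Col3a1); their part in the value of Apod was not tested.

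The 10 mature genes not called included the markers most often used for the cell type. Mbp was at 4890, 4390 and 4480 CPM in WT, 4030, 4340 and 4330 in HD, 4270, 4690 and 3570 in cGAS-KO, and 4180, 4090 and 3850 in the double mutants. Its averaged change was -0.08 ± 0.07, with a 95% interval of -0.24 to 0.08 (adjusted p = 0.524). Mog, a protein of the outer myelin surface, was at 94.2, 82.6 and 80.4 CPM in WT, 98.7, 112 and 115 in HD, 82, 86.1 and 57 in cGAS-KO, and 84.7, 88 and 93.5 in the double mutants. HD lay above WT for Mog, while the double mutants overlapped cGAS-KO, and the averaged change of 0.29 ± 0.09 missed the threshold (adjusted p = 0.0541). Mag, a myelin surface lectin, Cnp, an enzyme of non-compact myelin, and Opalin, a glycoprotein of oligodendrocyte membranes, changed by 0.32 ± 0.11, 0.38 ± 0.14 and 0.23 ± 0.07 and were not called. Dnajc7 shares 154 exonic bases with Cnp on the opposite strand and had 39.1% as many counts. The other 5, Trf, Gsn, Gjc3, Gal3st1 and Ninj2, had averaged changes between -0.12 (Gjc3) and 0.34 (Ninj2).

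Mature genes that rose and those that fell overlapped in level and in length. The WT level of the 8 that fell ran from 6.88 to 269 CPM per kilobase (median 72.4), that of the 3 that rose from 16.9 to 154 (median 45.8) and that of the 10 not called from 3.45 to 542 (median 36.5). Exonic length was 1870 to 6849 bases in the 8, 1707 to 3635 in the 3 and 937 to 8469 in the 10.

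**Figure D3:**
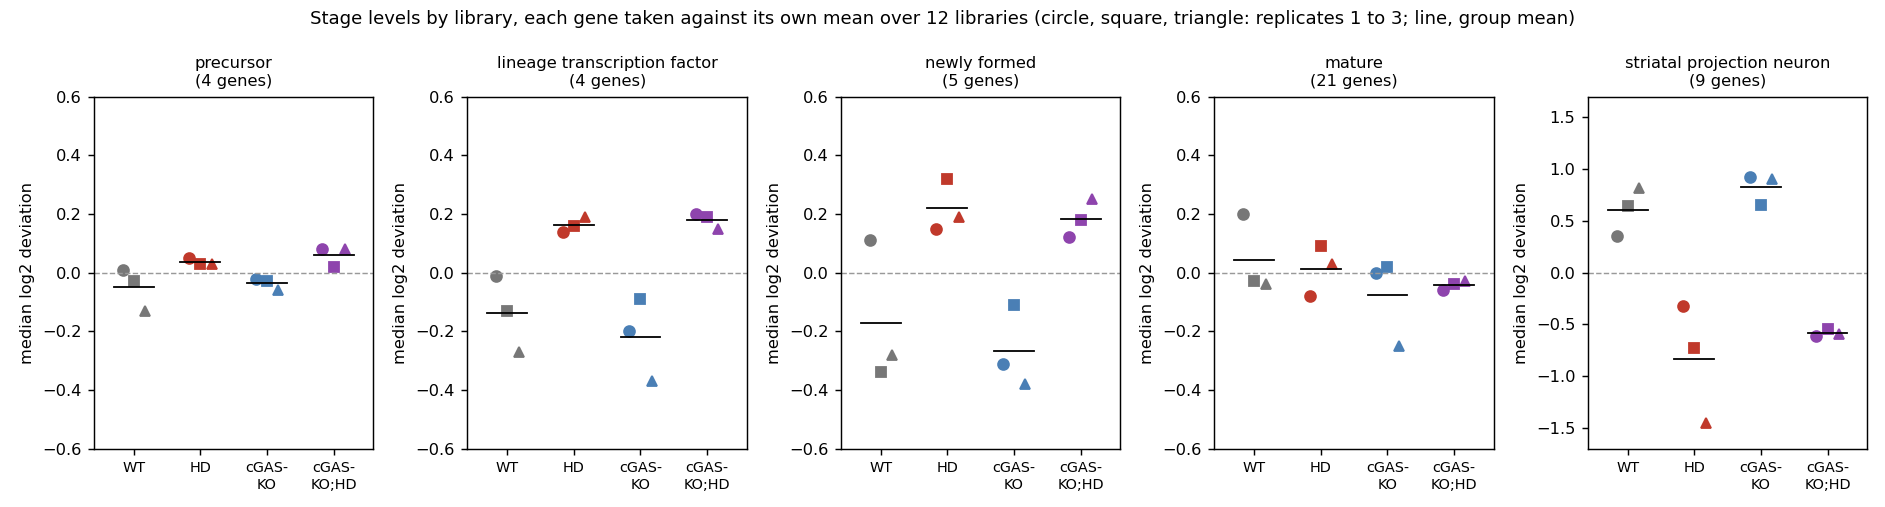
Median log2 deviation (vertical axis) of the genes of each stage in each library, every gene taken against its own mean over the 12 libraries, with 9 striatal projection neuron markers on a wider axis at the right. Transcription factors and newly formed genes are above 0.1 in all 6 knock-in libraries and reach at most 0.11 elsewhere, mature genes overlap, and the neuron markers are below 0 with the knock-in.

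Ratios within a library do not depend on how much oligodendrocyte RNA it holds as a whole, and are given as a description. Per 1000 counts of Mbp, Enpp6 had 3.63 ± 0.401 in WT (SD, n = 3) and 4.30 ± 0.48 in cGAS-KO, against 9.22 ± 0.753 in HD and 9.69 ± 0.246 in the double mutants. The 6 knock-in libraries, at 8.41 to 9.90, did not overlap the others, at 3.21 to 4.82, and WT replicate 1 and cGAS-KO replicate 3 fell with their own groups. Per count of Cnp, Mobp had 4.11 ± 0.444 in WT and 4.56 ± 1.56 in cGAS-KO, against 2.31 ± 0.322 in HD and 2.51 ± 0.151 in the double mutants. Per 100 counts of Mag, Car2 had 89.3 ± 9.69 in WT and 106 ± 11.7 in cGAS-KO, against 51.0 ± 5.89 in HD and 61.8 ± 7.88 in the double mutants. Knock-in and other libraries did not overlap for either ratio. Mobp and Car2 were chosen as genes seen to fall, and Cnp and Mag as genes with positive changes, so this separation is no separate support. Of the 6 ratios computed, Enpp6 per Mog and Cldn11 per Mog did not overlap either, while Sox10 per 100 of Mog did: it was 88 to 96.5 in WT, 83.6 to 91.3 in HD, 88.5 to 129 in cGAS-KO and 107 to 121 in the double mutants.

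**Figure D4:**
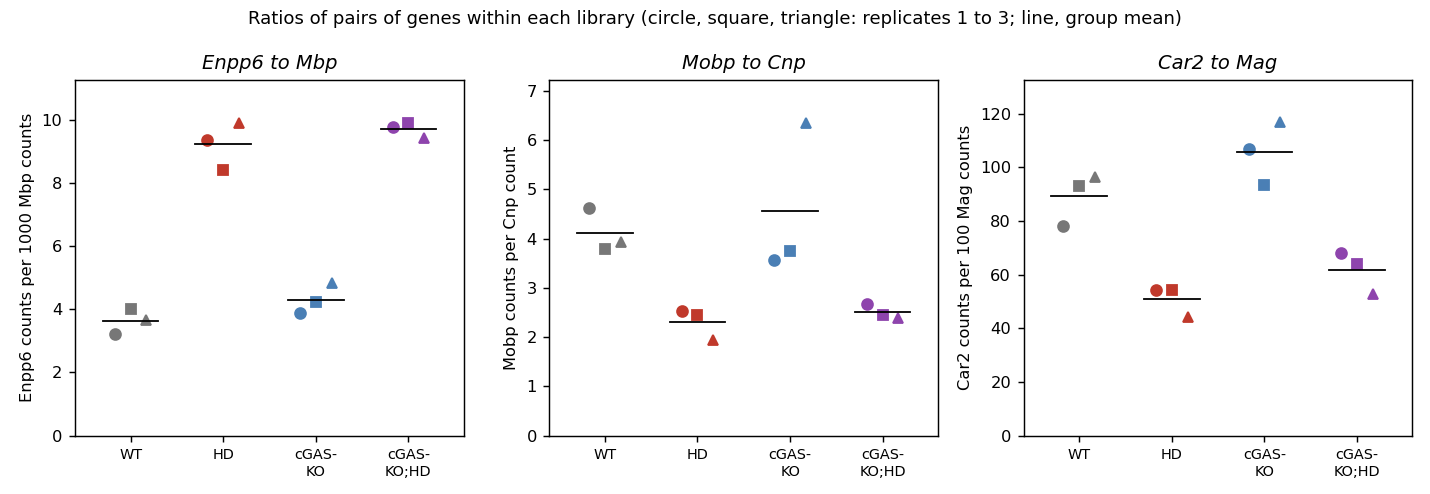
Counts of one gene per count of another within each library (vertical axes, from 0), by group, with a line at the group mean. Enpp6 per 1000 Mbp is 8.41 to 9.90 in the knock-in libraries and 3.21 to 4.82 in the others, while Mobp per Cnp and Car2 per 100 Mag are lower in all 6 knock-in libraries.

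Markers of other cells were counted in the averaged comparison, where 13.2% of all genes tested were called. The 9 striatal projection neuron markers summed to 2780 to 4370 CPM without the knock-in and 878 to 1800 with it, and all 9 fell. The 9 astrocyte markers summed to 3960 to 4570 CPM without it and 3300 to 3610 with it, with 1 called higher (Aqp4), 1 lower (Slc1a2) and 7 not called. Slc1a2 was the highest of the 9, at 1840 to 2660 CPM without and 1290 to 1580 with the knock-in. The median log2 deviation over the 9 overlapped, at -0.11 to 0.21 without and -0.2 to 0.14 with it. The 8 microglia markers summed to 443 to 574 CPM and 468 to 520 CPM, with 1 called higher (Tmem119). The 7 endothelial markers summed to 45.6 to 103 CPM over the libraries with 1 called lower (Flt1), and the 7 mural cell markers to 98.3 to 146 CPM with none called. The cortical projection neuron, thalamic and septal neuron and choroid plexus sets varied between libraries of the same group. None of their genes was called. The cortical sum was 158 to 709 CPM in WT and 199 to 1060 in cGAS-KO. With the knock-in it was 134 to 209 CPM in HD and 190 to 316 in the double mutants. The thalamic and septal sum was 329 to 783, 294 to 796, 615 to 1140 and 441 to 628 CPM in the same order. The choroid plexus sum was 90.6 to 2080 CPM over the libraries. Median averaged log2 changes were -1.74 over the cortical, 0.31 over the thalamic and septal and 0.21 over the choroid plexus genes. Of 5 Schwann cell markers, which would mark peripheral nerve, Pmp2 was at 0 in all libraries and the sum was 2.8 to 11.4 CPM, including 0.569 to 8.79 of Egr2, which neurons also express. Egr2 was called lower. The part of any of these in the lineage values was not tested.

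In mice with cGAS, 5 of the 34 genes were called in HD against WT, where 4.1% of all genes tested were called (1.43% higher, 2.67% lower). Enpp6 (1.23 ± 0.10) and Sox8 (0.36 ± 0.07, adjusted p = 0.00961) rose. Cldn11 (-0.49 ± 0.10, adjusted p = 0.0139), Car2 (-0.48 ± 0.11, adjusted p = 0.0271) and Fa2h (-0.37 ± 0.09, adjusted p = 0.0304) fell. The count depended on single libraries. It was 8 without WT replicate 1, 3 without WT replicate 2 or HD replicate 1, 2 without WT replicate 3 or HD replicate 2, and 1, Enpp6 alone, without HD replicate 3. The share of all genes called in these single-library fits is not given here. With WT replicate 1 and cGAS-KO replicate 3 both left out it was 21, 15 higher and 6 lower, where 16.5% of all genes were called. Since cGAS-KO replicate 3 is in neither group, it enters this comparison only through the shared fit. In every comparison, leaving out libraries that stood apart from their groups narrows the spread within groups by construction. With both out, 9 mature genes were called higher and 6 lower.

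In mice without cGAS, 9 of the 34 were called in double mutants against cGAS-KO, where 3.96% of all genes were called (1.44% higher, 2.52% lower). Enpp6 (1.13 ± 0.10), Sox10 (0.42 ± 0.07, adjusted p = 0.0039), Sox8 (0.27 ± 0.07, adjusted p = 0.037), Gpr17 (0.46 ± 0.10, adjusted p = 0.0271), Myrf (0.33 ± 0.08, adjusted p = 0.0475), Gjb1 (0.49 ± 0.11, adjusted p = 0.0277) and Apod (0.65 ± 0.16, adjusted p = 0.0382) rose. Car2 (-0.45 ± 0.11, adjusted p = 0.0358) and Ugt8a (-0.31 ± 0.08, adjusted p = 0.044) fell. Only Enpp6 and Sox10 were called whichever library of the groups compared was left out. The count was 2 without cGAS-KO replicate 1 or double-mutant replicate 2 and 3 without double-mutant replicate 1 or 3, and it was also 3 (Enpp6, Sox10 and Sox8) with Xist class as a term. For these fits too the share of all genes called is not given. Without WT replicate 1 and cGAS-KO replicate 3 it was 16, 9 higher and 7 lower, where 8.31% of all genes were called.

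In the averaged comparison the 2 libraries mattered less. Without both it had 26 genes called, 18 higher and 8 lower, where 21.2% of all genes were called. With any 1 of the 12 libraries left out, 13 of the 19 genes kept their call. The other 6 lost it in some fits: Aspa without WT replicate 2, Olig1 without HD replicate 2 or 3, Myrf in 6 of the 12 fits, and Vcan, Bcas1 and Ugt8a in 8 of the 12 each. Myrf kept its call without WT replicate 1, HD replicate 1, double-mutant replicate 3 or any 1 cGAS-KO library. Vcan kept it without WT replicate 1, HD replicate 3, cGAS-KO replicate 3 or double-mutant replicate 1. Bcas1 kept it without WT replicate 1, cGAS-KO replicate 2 or 3 or double-mutant replicate 1, and Ugt8a without WT replicate 1 or 3 or cGAS-KO replicate 2 or 3.

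Loss of cGAS changed none of the 34 genes past the threshold. In cGAS-KO against WT, 0 of 34 were called by edgeR's quasi-likelihood test, and 0% of all genes. At an unadjusted p under 0.05 there were 4 (Ugt8a 0.24 ± 0.08, Myrf -0.22 ± 0.08, Cspg4 -0.35 ± 0.14 and Cldn11 -0.21 ± 0.10), and 0 were called by DESeq2 or limma-voom. In double mutants against HD, 0 of 34 were called, and 0.00469% of all genes. At an unadjusted p under 0.05 there were 2 (Gpr17 0.26 ± 0.10 and Mog -0.29 ± 0.13), and DESeq2 and limma-voom called 0. Averaged over both knock-in genotypes, the cGAS comparison called 0 of 34 and 0% of all genes, with 5 at an unadjusted p under 0.05 (Gsn, Mag, Mog, Cspg4 and Trf, from -0.31 to -0.23), and the same 2 tools called 0. These 3 comparisons share libraries with the knock-in comparisons and with each other.

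The size of change these comparisons could hold differed by gene. For Enpp6 the change in double mutants against HD was 0.01 with a 95% interval of -0.20 to 0.21, and for Sox10 it was 0.13 (-0.02 to 0.28). For Mbp it was -0.07 (-0.29 to 0.16), for Car2 -0.03 (-0.27 to 0.20), and for Tcf7l2, the most variable of the 34, -0.80 (-2.56 to 0.95). The 21 mature genes had a median change of -0.07 in double mutants against HD and -0.17 in cGAS-KO against WT, beside 0.01 and 0 over all genes tested. In cGAS-KO against WT, 18 of the 21 mature genes had a negative change. WT replicate 1 had the highest mature sum and cGAS-KO replicate 3 the lowest. With both left out, 16 of the 21 had a positive change and the median was 0.06. Leaving out a high WT and a low cGAS-KO library raises this change by construction. With only WT replicate 1 left out 15 were negative, and with only cGAS-KO replicate 3 left out 12 were. In double mutants against HD, which uses neither library, 16 of the 21 were negative, and 13 to 17 with any 1 library of those groups left out.

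**Figure D5:**
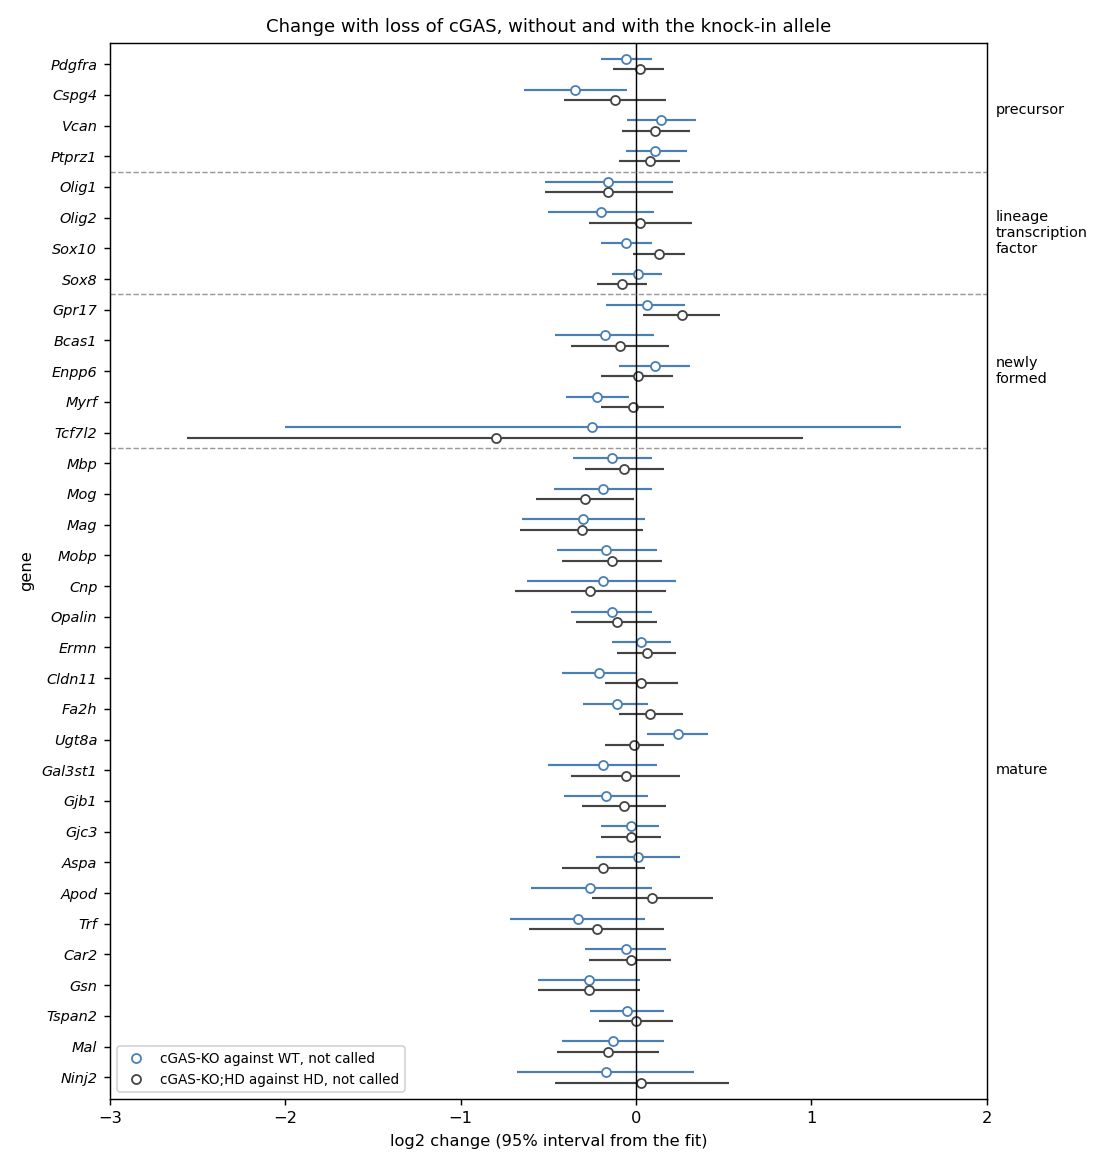
Log2 change (horizontal axis) of all 34 genes with loss of cGAS, in cGAS-KO against WT (blue) and in double mutants against HD (dark grey), with 95% intervals from the fit, in order of maturation stage. No gene was called, Tcf7l2 has the widest intervals, and most mature genes lie slightly below 0 in cGAS-KO against WT. With WT replicate 1 and cGAS-KO replicate 3 left out, most are above 0. These had the highest and lowest mature sums, so leaving them out raises the change by construction.

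The knock-in effect with cGAS was then tested against that without it. The interaction called 0 of 34 by edgeR's quasi-likelihood test, and 0.00469% of all genes. At an unadjusted p under 0.05 there was 1, Ugt8a (-0.24 ± 0.11, adjusted p = 1), and DESeq2 and limma-voom called 0. Genes called in one background only, such as Sox10, Gpr17, Cldn11 and Fa2h, were therefore not shown to respond differently. The interaction was 0.19 for Sox10 (95% interval -0.02 to 0.39), 0.24 for Cldn11 (-0.06 to 0.54) and -0.10 for Enpp6 (-0.39 to 0.19).

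Other genes of the lineage, listed by stage in the same way and not among the 34, were counted in the averaged comparison. Of 12 other newly formed genes, 6 were higher and 1 lower, with a median change of 0.26. Zfp488, an oligodendrocyte zinc finger factor, was at 3.91 to 5.69 CPM in WT, 11.3 to 12.1 in HD, 4.49 to 4.66 in cGAS-KO and 10.9 to 12.2 in the double mutants, and rose by 1.33 ± 0.10 (adjusted p = 4.59e-06). Nkx2-2, a homeodomain factor of differentiation, rose by 0.78 ± 0.11 (adjusted p = 0.000713). Bmp4, a growth factor that newly formed cells secrete, rose by 1.08 ± 0.16 (adjusted p = 0.000911) from low levels of 0.974 to 2.09 CPM. Of 12 other precursor genes, 5 were higher and 1 lower, with a median change of 0.21. Pcdh15, a protocadherin, rose by 0.50 ± 0.05 (adjusted p = 4.95e-05) and Susd5 by 0.77 ± 0.13 (adjusted p = 0.00242). Cacng4, an auxiliary AMPA receptor subunit that neurons also express, fell by 0.48 ± 0.07 (adjusted p = 0.000785).

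Of 25 other mature genes, 11 were higher and 1 lower, against 3 higher and 8 lower among the 21 mature genes above. Anln, a septin-associated myelin protein, was at 84.1 to 100 CPM in WT, 130 to 145 in HD, 90 to 102 in cGAS-KO and 139 to 169 in the double mutants, and rose by 0.60 ± 0.07 (adjusted p = 0.000142). Hhip, a hedgehog-binding protein, rose by 0.54 ± 0.07 (adjusted p = 0.000221). Il33, an alarmin that mature oligodendrocytes and some astrocytes hold in the nucleus, was at 144 to 164 CPM in WT, 89.3 to 99.4 in HD, 143 to 155 in cGAS-KO and 90.2 to 106 in the double mutants, and fell by 0.64 ± 0.06 (adjusted p = 2.06e-05). The median change was 0.24 over the 25 (20 positive, 5 negative) and 0.13 over the 21 (11 positive, 10 negative), beside 0.01 over all genes tested. The difference between the lists was not tested, and the count of 3 higher among the 21 was 7 without cGAS-KO replicate 2, 5 without WT replicate 1 or cGAS-KO replicate 3, and 9 without the last 2 together.

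Lipid and signalling genes were counted in the same comparison, with 13.2% of all genes called. Of 12 enzymes that supply myelin lipids, 1 was higher and 2 lower. Cers2, the synthase of very long chain ceramides, rose by 0.25 ± 0.06 (adjusted p = 0.0101), and Hmgcs1, an early enzyme of sterol synthesis, fell by 0.28 ± 0.08 on the log2 scale (adjusted p = 0.0336). Of 20 ligands and receptors of myelination, 3 were higher and 1 lower. Adgrg1, an adhesion receptor of precursors, rose by 0.36 ± 0.07 (adjusted p = 0.00447), and Notch1, which restrains differentiation, by 0.32 ± 0.07 (adjusted p = 0.00886). Jag1, a ligand of Notch1, fell by 0.49 ± 0.10 (adjusted p = 0.00818). Many of these genes are also expressed by neurons and astrocytes.

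The genes most like Enpp6 were sought among 15256 genes with a mean of at least 1 CPM, by Pearson's r of log2 CPM over the 12 libraries, as a description. They were Sema3d (r = 0.983), D16Ertd472e (r = 0.982) and C130021I20Rik (r = 0.981). Sema3d, a secreted semaphorin, was at 8.24 to 9.37 CPM in WT, 18.2 to 19 in HD, 8.39 to 9.43 in cGAS-KO and 17.9 to 20.7 in the double mutants. The 12 points form 2 sets, with and without the knock-in, so any gene that separates those sets scores highly.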

How the data were processed

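Poly(A)-selected striatal RNA from 12 mice, 3 per group, was sequenced from stranded libraries (NEBNext Ultra II Directional), per the labels' protocols. The authors deposited raw counts per Ensembl gene for each library; the sources used here do not give the aligner, genome build, annotation or counting rule. Gene symbols came from GENCODE M21, and rows without one held at most 0.00617% of a library's counts. The 34 genes, the other gene lists and the tests were chosen with earlier results of these data known. Genes were kept by filterByExpr of edgeR 4.0.16 (minimum count 10, minimum total 15), scaled by TMM and fitted with the robust quasi-likelihood model with 1 mean per group over all 12 libraries (8 residual degrees of freedom). Calls had a Benjamini-Hochberg adjusted p under 0.05 over 21309 genes. Errors of log2 changes are standard errors, and intervals are 95% intervals from the fit. The p-values set a change against the spread between mice within groups, pooled over all 12 libraries. The fit was first run on simulated counts with changes planted in HD alone. Those changes were larger than most reported here, and recovery of smaller ones was not tested. Values in every library are given for called genes and for Mbp, Mog, Pdgfra, Olig2 and Sox10, and up to 3 called genes of each other list by p; some genes of those lists are not reported here. Alternatives were DESeq2 1.42.0, limma 3.58.1 (voom), DESeq2 size factors, other filters, fits on the compared groups alone, a replicate block, mitochondrially encoded genes left out, Xist class as a term (added after seeing the data), and libraries left out. R was 4.3.3.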

Additional observations from a re-analysis of the deposited data

How the results depend on the processing

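Of 33 calls of a lineage gene in any comparison, 0 reversed in any alternative and 16 held in every one. The 5 genes called in HD against WT became 9 by DESeq2's Wald test, 8 in a fit on the compared groups alone, 21 without WT replicate 1 and cGAS-KO replicate 3 (16.5% of all genes, against 4.1% in the main fit), 9 at an adjusted p under 0.1, and 1 to 8 with 1 library of those groups left out. The 9 called in double mutants against cGAS-KO became 4 with a replicate block, 2 in a fit on the compared groups alone, 16 without those 2 libraries (8.31% of all genes, against 3.96%), 3 with Xist class as a term, and 2 to 7 with 1 library of those groups left out. For the other alternatives the share of all genes called is not given here. Their counts therefore show no change particular to the lineage genes. The averaged knock-in count of 19 stayed between 14 and 26. The cGAS and interaction counts were 0 in every alternative run. With the replicate block, HD against WT had 4 calls and the averaged comparison 16. No pairing of the mice by replicate number was seen. Of 18 same-numbered pairs of libraries, 2 had correlated deviations over 0.1 (range -0.23 to 0.2, against -0.28 to 0.3 for others). Only 2 libraries correlated best with their own number. The correlations run over all genes tested, so they cannot exclude a litter or batch shared by number. The cause of the changed counts of calls was not tested, beyond the fewer libraries in some fits. With 3 mice per group, the intervals above limit what the cGAS comparisons could show.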
